A study of Mus musculus with 2 samples.

Results

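The Mesp-positive cells described here are 70 of the 1783 filtered cells of the LB library, 3.93% (exact binomial 95% interval 3.07 to 4.93%, counting error only), and 70 of 4488 filtered cells in the series. They were chosen by their unique molecular identifiers (UMIs, 1 per captured RNA molecule). A member had at least 3 UMIs of Mesp1 and Mesp2 together and at most 3 UMIs of Hand1, Foxf1, Prdm6 and Pitx1 together, named the Hand set below. The study cultured R1 mouse embryonic stem cells for 72 h in the serum-free medium N2B27 and profiled single cells of 2 conditions. LB cells received the cytokine LIF and the ligand BMP4 on gelatin. LBPXRS cells received the same 2 factors on fibronectin with PD0325901 (an inhibitor of MEK), Xav939 (a tankyrase inhibitor that lowers WNT signalling), a resorcyclic lactone and SB431542 (an inhibitor of the NODAL and activin receptors). Each condition is 1 library, so there was no test between conditions or groups of cells, and the inhibitors and the substrate cannot be told apart.

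In the mouse embryo, epiblast cells enter the primitive streak, switch on T and Eomes, lose their epithelial contacts and emerge as nascent mesoderm. The related bHLH factors MESP1 and MESP2 appear transiently in that mesoderm: MESP1 marks cells that later contribute to heart, head and other mesoderm, and MESP2 also acts later in somite formation. FGF8, WNT and NODAL signals act in the streak, and SNAI1 represses the epithelial cadherin gene Cdh1 there.

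LB cells outside the rule were grouped by the same kind of counts, and all comparisons are within LB. The T group had at least 3 UMIs of T with neither Mesp nor Hand set above its limit (259 cells), the Hand group had more than 3 Hand set UMIs with Mesp under 3 (200 cells), and the Mesp and Hand group had at least 3 Mesp and more than 3 Hand set UMIs (71 cells). The remaining LB cells numbered 1183, and 635 of them with at least 10 UMIs of the naive pluripotency gene Zfp42 served as a background for free RNA, a group chosen after values were seen. The LB and LBPXRS files held 2008 and 3111 barcodes, of which 1783 and 2705 passed at least 1000 genes and at most 10% mitochondrial UMIs. The libraries shared 10 barcodes, 1 of them a member. Without shared barcodes the rule gave 69 members, and 386 genes at least 2-fold higher and 446 lower than in the other LB cells, in place of 395 and 447.

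The 5 genes that mark the cells stand on 3 chromosomes. Their promoters are shown because the T-box factors T and EOMES, described below, bind variants of one short motif. Sequences are from RefSeq (build GRCm38.p6), on each gene's strand, from 250 bases before to 50 after its start; all 5 genes matched. Capitals mark the core AGGTGT or its reverse complement ACACCT.
Mesp1, chr7:79793541-79793840, minus strand: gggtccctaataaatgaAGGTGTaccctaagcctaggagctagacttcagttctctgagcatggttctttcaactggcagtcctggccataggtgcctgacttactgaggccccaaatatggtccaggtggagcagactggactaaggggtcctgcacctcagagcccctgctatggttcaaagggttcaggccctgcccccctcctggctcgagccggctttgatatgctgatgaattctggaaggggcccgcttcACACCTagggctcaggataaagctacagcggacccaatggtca
Mesp2, chr7:79810477-79810776, plus strand: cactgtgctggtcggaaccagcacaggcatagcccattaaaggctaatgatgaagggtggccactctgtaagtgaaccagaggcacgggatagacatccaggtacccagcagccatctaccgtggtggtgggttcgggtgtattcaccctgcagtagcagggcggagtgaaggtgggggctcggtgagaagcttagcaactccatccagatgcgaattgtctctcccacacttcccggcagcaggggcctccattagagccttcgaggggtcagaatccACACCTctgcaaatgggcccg
Lhx1, chr11:84525485-84525784, minus strand: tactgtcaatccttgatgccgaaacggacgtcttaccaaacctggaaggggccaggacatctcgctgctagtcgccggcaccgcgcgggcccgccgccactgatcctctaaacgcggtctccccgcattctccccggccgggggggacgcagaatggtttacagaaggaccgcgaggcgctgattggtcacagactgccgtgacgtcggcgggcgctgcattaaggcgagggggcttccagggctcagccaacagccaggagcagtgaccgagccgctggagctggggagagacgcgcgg
Snai1, chr2:167537945-167538244, plus strand: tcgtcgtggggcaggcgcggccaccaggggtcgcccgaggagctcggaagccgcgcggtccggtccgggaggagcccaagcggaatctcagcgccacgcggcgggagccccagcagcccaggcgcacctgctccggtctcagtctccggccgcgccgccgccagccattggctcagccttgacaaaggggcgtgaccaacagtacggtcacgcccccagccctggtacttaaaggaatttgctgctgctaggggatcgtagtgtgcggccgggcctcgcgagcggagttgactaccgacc
Dll3, chr7:28301736-28302035, minus strand: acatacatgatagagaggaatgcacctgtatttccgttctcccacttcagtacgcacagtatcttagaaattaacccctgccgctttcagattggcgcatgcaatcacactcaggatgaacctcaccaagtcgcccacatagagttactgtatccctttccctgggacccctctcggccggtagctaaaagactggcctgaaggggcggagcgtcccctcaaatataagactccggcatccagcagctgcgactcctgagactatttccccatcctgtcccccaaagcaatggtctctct
Mesp1 held the T-box letters at 2 places, and Mesp2 at 1. The windows of Lhx1, Snai1 and Dll3 held none. Of all 32851 promoter windows of this length, 13.7% held the letters on either strand. The Snail-type E-box CAGGTG (or CACCTG, which can overlap the T-box letters) stood in the windows of Mesp1, Snai1 and Dll3, and in 20.2% of all windows. These matches are letters in a window, not measured binding.

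Mesp1 and Mesp2 chose the cells, so their values are a description. Mesp1 and Mesp2 together had 3, 6 and 64 UMIs in the lowest, median and highest member. At the minimum of 3 UMIs stood 12 cells, and 9 cells had 20 or more. Just outside the rule, 18 cells had 2 Mesp UMIs and 83 had 1. Mesp1 was found in 69 members (0, 6 and 52 UMIs) and Mesp2 in 34 (0, 0 and 15 UMIs). Both were found in 33 cells, Mesp1 without Mesp2 in 36, and Mesp2 without Mesp1 in 1. The signal was thus mostly Mesp1, and the 5 highest cells held 27.2% of all 739 Mesp UMIs. The other side of the rule had no gap either: 13 members stood at the maximum of 3 Hand set UMIs, and 11 cells with enough Mesp had 4. In all, 141 LB cells had 3 or more Mesp UMIs, and the 71 left out by the Hand set had a median of 10 Mesp UMIs.

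**Figure D1:**
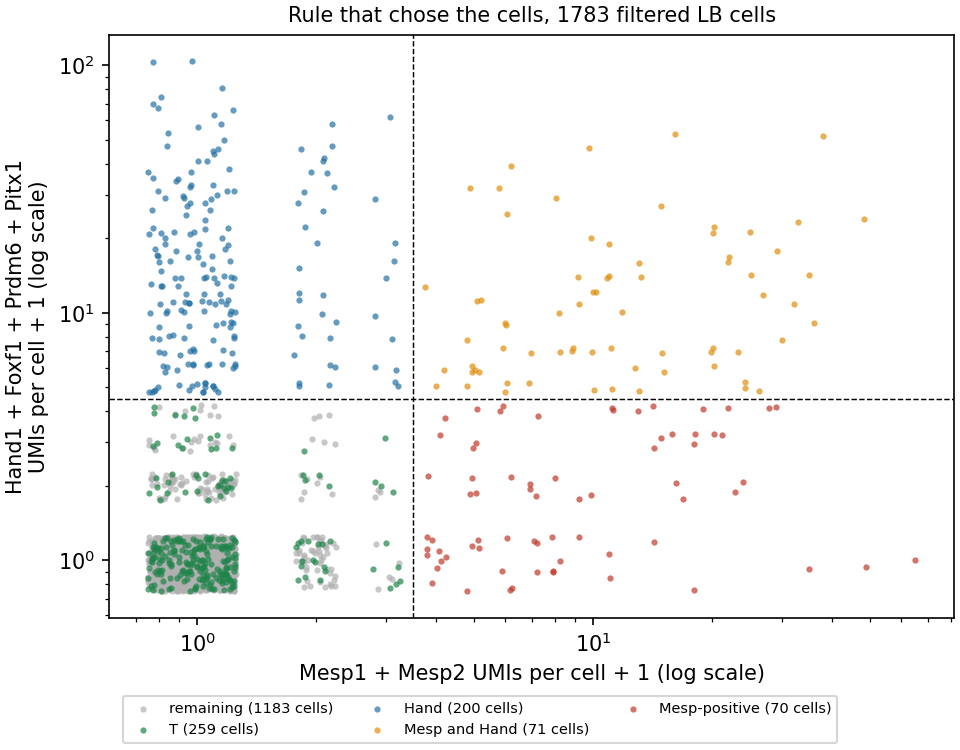
Mesp1 plus Mesp2 UMIs (x axis, log scale, 1 added) against Hand set UMIs (y axis, log scale, 1 added) in each of 1783 LB cells, moved at random by up to 0.25 UMI; dashed lines are the limits of the rule. The 70 Mesp-positive cells and the 71 Mesp and Hand cells form one continuous cloud across the limit of 3 Hand set UMIs.

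Members were somewhat shallower than other LB cells, with a median of 20538.5 UMIs (3318 to 41069) and 4116.5 genes per cell against 25599 UMIs and 4527 genes. Their median mitochondrial share was 2.05% against 2.74%. The caller Scrublet marked 1 member among 18 LB cells as a doublet, and doublets were kept. Summed S phase genes were at 1574 CPM (counts scaled to a group total of 1000000 UMIs) in members and 1637 in the other LB cells, and G2/M genes at 2304 and 2344. All 18 G2/M genes lay within 2-fold.

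Levels below are CPM over the summed UMIs of a group, with exact Poisson 95% intervals that cover counting error only. Ratios are log2((CPM + 1)/(CPM + 1)), which understates the difference of low genes. Against the other LB cells 7727 genes had a CPM of 10 or more in either group. Of these, 395 were at least 2-fold higher in members (5.11%) and 447 at least 2-fold lower (5.78%), with an all-gene median of 0.08. With TMM scaling the median was -0.05 and the split 284 higher to 539 lower, so that 34.5% in place of 46.9% of these genes were higher. Because the rule used this contrast, the counts are read as a description.

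The label came with 3 marker genes beside Mesp1 and Mesp2, and all 3 were detected. The markers were chosen with earlier results of these data known, so their values are a description too. Lhx1, a LIM homeobox factor of the streak and early mesoderm, was at 155 CPM (135 to 176) in members, 61.7 in the Mesp and Hand group, 10.9 in the T group, 8.31 in the Hand group and 1.88 in the remaining cells. It had 0, 2 and 20 UMIs in the lowest, median and highest member and a ratio of 4.40 to the other LB cells. Snai1, the repressor named above, was at 75.7 CPM (62.4 to 91.0) in members against 6.09 in the other LB cells, a ratio of 3.43. Dll3, a Notch ligand family member of presomitic mesoderm, was at 104 CPM (88.7 to 122) against 11.4, a ratio of 3.09. Members stood above every other group in all 3 genes, with the Mesp and Hand group next.

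The 3 markers were also found together in single cells. Of 70 members, 26 had UMIs of all 3, 21 of 2, 19 of 1 and 4 of none. At least 2 were found in 67.1% of members (54.9 to 77.9%), 53.5% of the Mesp and Hand group, 13.9% of the T group, 6.50% of the Hand group and 0.472% of Zfp42-high cells. Depth moves such shares, so each cell was also thinned to 5000 UMIs, which left 69 members. Then Lhx1 was found in 42.0% of members (30.2 to 54.5%; 70.0% unthinned) and in 0 of the Zfp42-high cells (3 counts allow up to 0.472%, exact upper bound 0.579%), whose median depth was 28074 UMIs. Snai1 was found in 27.5% and 0.315%, and Dll3 in 36.2% and 2.36%. The marker shares in members lay above those in the Zfp42-high cells. Markers and Zfp42-high cells were both chosen with values of these data known, so this difference is no independent support for the label.

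**Figure D2:**
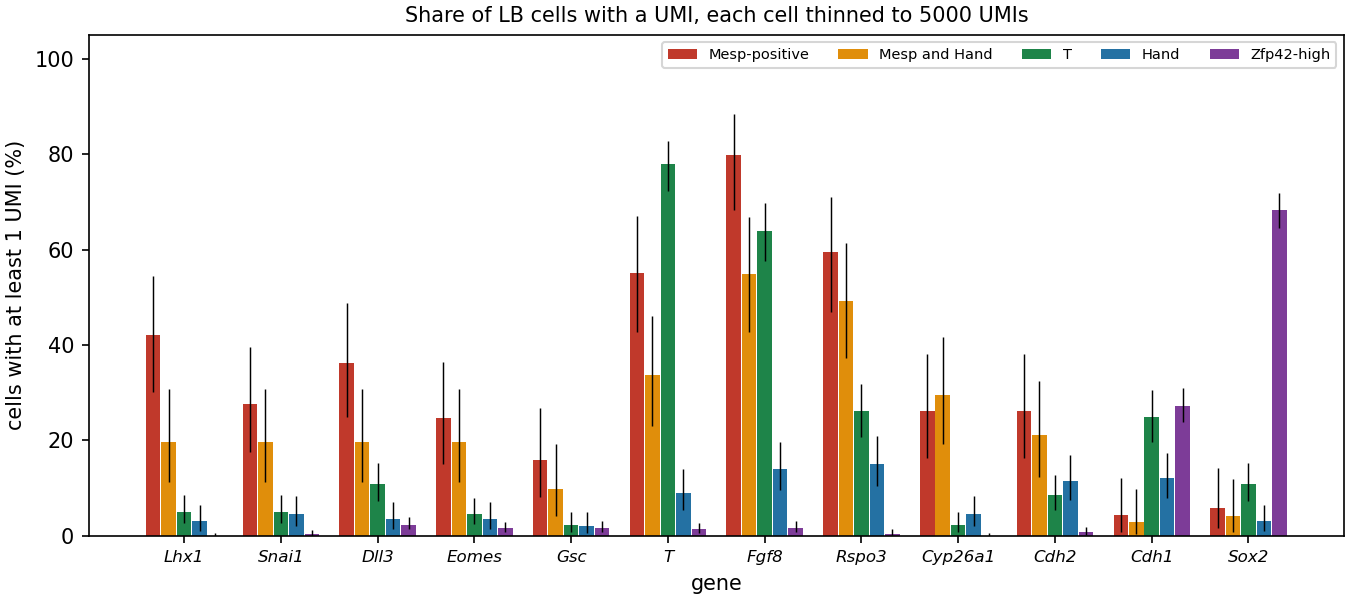
Share of cells with at least 1 UMI of 12 genes (y axis, percent) in 5 groups of LB cells after thinning each cell to 5000 UMIs; error bars are exact binomial 95% intervals. Lhx1 reaches 42.0% in Mesp-positive cells against 5.06% in the T group, while Sox2 reaches 5.80% against 68.2% in Zfp42-high cells.

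Most tested primitive streak genes were higher in members. Of 15 list genes 13 were tested, 10 were at least 2-fold higher than in the other LB cells, 1 was lower and 2 lay between, with a median of 1.78. T, the T-box factor of the streak, had 0, 3 and 43 UMIs per member and was at 333 CPM (304 to 363), below the T group, which was chosen on it (525), and above the Mesp and Hand group (131) and the Hand group (35.5). Eomes, the T-box factor that acts upstream of Mesp1 in the embryo, was at 69.0 CPM (56.3 to 83.6), against 53.4 in the Mesp and Hand group, 12.1 in the Hand group, 8.40 in the T group and 8.71 in the remaining cells. It was not found in 35 of 70 members.

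The streak homeobox genes Gsc and Mixl1 were higher in members too. Gsc was at 32.1 CPM (23.7 to 42.6) in members, 21.4 in the Mesp and Hand group and 4.05 in the T group. Mixl1 was at 83.0 CPM (69.1 to 99.0) in members, 79.5 in the Mesp and Hand group and 19.7 in the Hand group, with a ratio of 1.44 to the T group. They were found in few members, 18 for Gsc and 23 for Mixl1, and 1 cell held 19.4% of the Mixl1 UMIs. Nodal, the streak ligand, was the exception of the list, at 8.71 CPM (4.64 to 14.9) in members and 18.9 in the other LB cells.

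Of the presomitic and paraxial list 5 of 15 genes were tested. Against the other LB cells 4 were higher (Tbx6, Dll3, Rspo3 and Cited1) and Tcf15 lower (median 2.52). Against the T group 4 of 5 were higher, and against the Hand group all 5 were. Tbx6, a T-box factor of presomitic mesoderm, was at 10.0 CPM (5.62 to 16.6) against 0.932 in the other LB cells, from 15 UMIs. Cited1, a transcriptional cofactor, was at 230 CPM (206 to 255) against 39.7. Msgn1, a presomitic bHLH factor, had 3 UMIs and Ripply2 none.

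Signals of the streak were measured by pathway. For FGF, 6 of 14 tested genes were higher, 2 lower and 6 between (median 0.92), and Spry2 was under 2-fold without 1 cell. Fgf8, the main streak FGF, had 0, 8.5 and 44 UMIs per member and was at 514 CPM (478 to 551) against 365 in the T group, 368 in the Mesp and Hand group and 48.3 in the Hand group. Fgf4, the FGF of pluripotent cells, was at 3.35 CPM against 40.8 in the other LB cells. For WNT, 8 of 12 were higher and none lower (median 1.39), and 6 without the cell with most UMIs of the gene (not Wnt5b and Fzd10). Rspo3, a secreted enhancer of WNT signalling, was at 216 CPM (193 to 241) in members, 77.7 in the T group and 28.9 in the other LB cells. Wnt5a, a ligand of the non-canonical branch, was at 63.6 CPM against 15.3 in the T group and 52.3 in the Hand group. Axin2, a feedback target of canonical WNT, was at 19.4 CPM against 16.7 in the other LB cells, within counting error. Dkk1, a secreted WNT inhibitor, had no UMI in members, where 3 UMIs would be 2.01 CPM, and was at 14.9 CPM in the Hand group.

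For NODAL, 3 of 11 tested genes were higher, 2 lower and 6 between (median 0.29). Tdgf1, the NODAL co-receptor, was found in 69 members at 686 CPM (644 to 729), against 431 in the other LB cells and 80.6 in the Hand group. Lefty1, a NODAL inhibitor, was at 185 CPM, but 1 cell held 46.9% of its UMIs; without that cell its ratio to the other LB cells was 0.61 and thus under 2-fold. For BMP, 3 of 13 were higher and 10 between (median 0.50). Id1, a BMP target, was at 301 CPM in members and 295 in the T group, and Bmp4 itself at 34.8 CPM against 202 in the Hand group. For Notch, 6 of 9 tested genes were higher and none lower (median 1.04). Without the cell with most UMIs of the gene 4 stayed so, and Hes1 and Nrarp did not. Notch3, a receptor, was at 45.5 CPM (16.5 in the other LB cells), Jag1, a ligand, at 15.4 (4.93) and the target Hes1 at 148 (73.0), a ratio of 1.01, or 0.85 without 1 cell. The ligand Dll1, which acts in presomitic mesoderm, had 3 UMIs in all members.

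Cell adhesion genes divided by class. Of 11 tested epithelial genes 8 were lower and none higher (median -1.45). Cdh1 was at 17.4 CPM (11.4 to 25.5), against 61.8 in the T group, 36.5 in the Hand group and 66.3 in the other LB cells, and 55 of 70 members had no Cdh1 UMI. The tight junction gene Cldn6 was at 4.69 CPM against 49.0, and Epcam at 68.3 against 181. Of 9 tested mesenchymal genes 8 were higher (median 1.70), and 6 without the cell with most UMIs of the gene (not Zeb2 and Tgfb1i1). After thinning to 5000 UMIs the ratio of Zeb2 was -0.51. Cdh2, the mesenchymal cadherin, was at 46.2 CPM (35.9 to 58.5) against 14.5 in the T group and 9.86 in the other LB cells. Fn1, fibronectin, was at 424 CPM (391 to 458) against 119 and 130. The migration receptor genes Pdgfra (22.1 against 1.70 CPM) and Aplnr (36.8 against 3.36 CPM) were higher, and the other 6 tested genes of that list lay between.

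**Figure D3:**
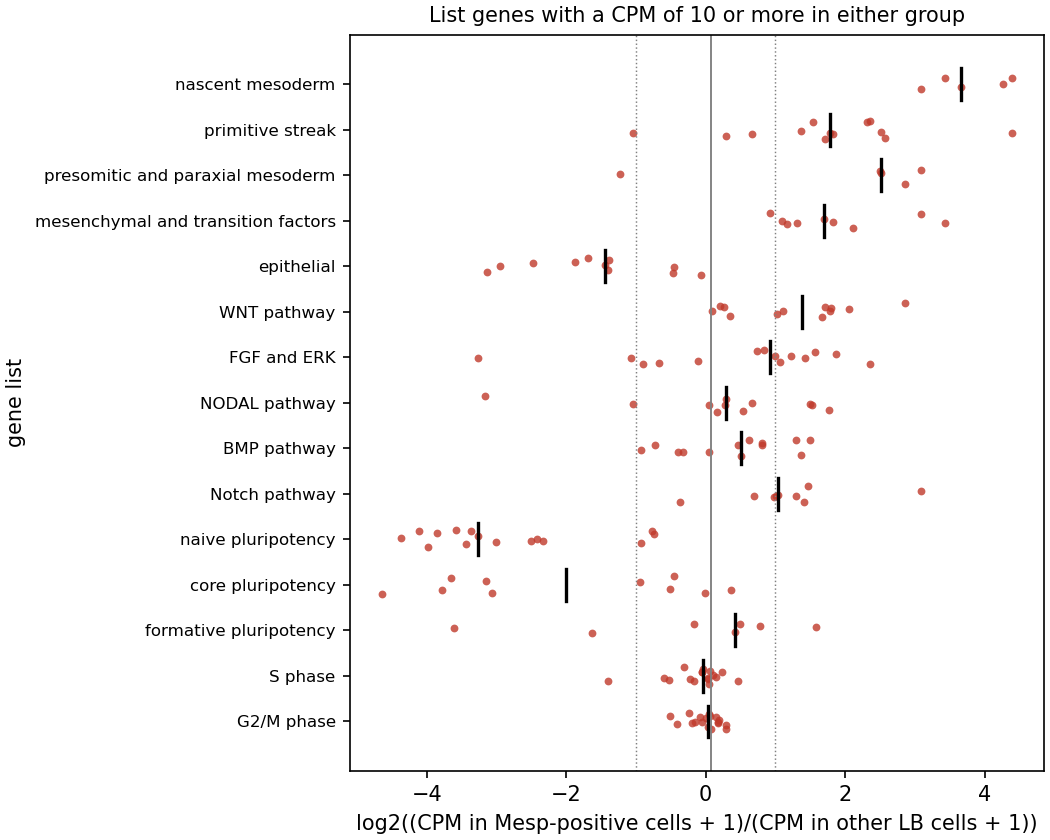
Each point is a list gene with a CPM of 10 or more in members or in the other LB cells; the x axis is the log2 ratio of members to the other LB cells, black bars are list medians, the grey line the all-gene median of 0.08 and dotted lines 2-fold. Streak, mesenchymal and WNT genes lie mostly to the right, epithelial and naive pluripotency genes to the left, and cell cycle genes around 0.

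Naive pluripotency genes were lower in members than in the other LB cells, most of which are the remaining cells. Of 15 tested naive genes 12 were lower and none higher (median -3.26). Klf2 was at 16.1 CPM (10.3 to 23.9) against 293 in the other LB cells, Zfp42 at 33.5 against 414 and Dppa3 at 5.36 against 130. Nanog was at 39.5 CPM (30.1 to 51.0) against 76.4. Against the T group 4 of 8 tested naive genes were lower and 1 higher (median -1.06), with Zfp42 at a ratio of -0.22. Against the Hand group 2 of 8 were lower, 1 higher and 5 between (median 0.05). Of the 10 core genes 5 were lower than in the other LB cells, 2 of 8 tested were lower than in the T group and 1 of 8 than in the Hand group. Sox2 was at 13.4 CPM (8.18 to 20.7) against 126, while Pou5f1, which persists in the streak of the embryo, was at 378 (348 to 411) against 730 and was found in 65 of 70 members. Of the 50 Zfp42 UMIs in members 1 cell held 36.0%, and the part of free RNA or doublets in such counts was not tested. The formative list had 1 of 7 tested genes higher, 2 lower and 4 between (median 0.42). Its member Otx2, a homeobox gene, was at 52.9 CPM against 37.3 in the other LB cells and 12.4 in the T group.

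Genes of other fates were mostly low, and lists of the node, heart and blood had few genes to test. Of the node and endoderm list 1 of 10 genes was tested and was higher (Gsc, ratio 2.51). Of the cardiac list 1 of 2 tested was higher (Isl1), with a ratio of 2.02 that was -0.081 after thinning to 5000 UMIs. Of the blood and endothelial list none of 2 was higher, although Etv2 was higher than in the T group (ratio 1.20, or 0.92 without 1 cell). Foxa2 and Cer1, of node and endoderm, Hand2, Nkx2-5 and Tbx5, of heart, and Tal1 and Pecam1, of blood and endothelium, each had 0 UMIs in members. Kdr and Gata6 had 14 UMIs each, in 8 and 11 cells. Isl1 had 20 UMIs, 8 of them in 1 cell. Of the neural list 2 of 11 genes were tested, with 1 lower and none higher, and of the germ cell list 4 of 10, with 2 lower and none higher. No gene of the fibroblast list reached the minimum, so that list was not compared. Of the trophoblast list Eomes alone was higher, with Krt8 at 180 CPM against 188. Of the primitive endoderm list 2 of 3 tested genes were higher, Pdgfra and Lamb1, but Lamb1 not without 1 cell. Of the Hox and Cdx list 2 of 4 were higher, Evx1 and Gbx2, and 7 had no UMI. Of the Hand1 and Foxf1 mesoderm list 2 of 11 were higher, Msx1 and Twist1, and 3 lower, Hand1, Ahnak and Dlk1. The rule caps Hand1 and Prdm6 of these 11, and with no Hand set maximum the ratios of Hand1 and Dlk1 were 1.83 and 1.32, so the count partly restates the rule. The dissociation stress list had 1 of 9 higher, 1 lower and 7 between, and the S phase list 1 of 17 lower and 16 between.

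The 12 genes with the largest ratios to the other LB cells among those at 50 CPM or more were Lhx1, Mesp1, Ptgds, Mesp2, Snai1, Cyp26a1, Dll3, Gas1, Car3, Rspo3, Inka1 and Eomes. Cyp26a1, an enzyme that degrades retinoic acid, was found in 34 members at 87.1 CPM (72.7 to 103), against 6.45 in the T group, 11.2 in the Hand group and 96.2 in the Mesp and Hand group. Aldh1a2, which makes retinoic acid and was looked up after these values were seen, had 1 UMI. Ptgds, a prostaglandin synthase, was at 66.3 CPM (53.9 to 80.7) against 16.6 in the Mesp and Hand group and 3.90 in the T group, from 21 cells. Gas1, a membrane protein that binds hedgehog ligands, was found in 38 members and had a ratio of 3.05. The 12 smallest ratios belonged to Gpx2, Morc1, Spp1, Hsd17b14, Utf1, Gtsf1l, Trh, Jam2, Dpys, Dppa3, Lima1 and Klf2. Trh, a hormone precursor gene, was at 12.7 CPM against 334, and Utf1, a chromatin factor of pluripotent cells, at 12.7 against 343.

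The T group is the nearest stage by label. It and the Hand group are part of the other LB cells, and the 3 comparisons share the members. No comparison over all genes was made with the Mesp and Hand group, which gave 18.3% of members' neighbours (3.98% of cells). Against the T group 7672 genes were tested, of which 180 were at least 2-fold higher in members (2.35%) and 265 lower (3.45%). The 8 largest ratios were those of Mesp1, Mesp2, Ptgds, Lhx1, Cyp26a1, Snai1, Eomes and Gas1. Of the streak list 5 of 13 genes were higher (Eomes, Mixl1, Gsc, Lhx1 and Tdgf1), 1 lower and 7 between. The epithelial list had 8 of 11 lower, as against all other LB cells. The mesenchymal list had 8 of 9 higher, here with Mmp2 and without Vim, and 6 without the cell with most UMIs of the gene (not Zeb2 and Mmp2). After thinning to 5000 UMIs the ratio of Zeb2 to the T group was -1.17. The 8 smallest ratios included the junction genes Crb3, Cldn7 and Cdh1: Cldn7 was at 40.8 CPM (31.2 to 52.5) against 209. Pim2, a kinase, was at 10.0 CPM against 161. Fst, an activin inhibitor, was at 99.1 CPM against 174. The WNT list had 3 of 12 genes higher, none lower and a median of -0.11.

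Against the Hand group 7783 genes were tested, 269 were higher in members (3.46%) and 447 lower (5.74%). The 8 largest ratios were those of Mesp1, Mesp2, Lefty1, Lhx1, Dll3, Fgf8, T and Tdgf1. Of 12 tested streak genes 11 were higher (median 2.47). Of 13 tested genes of the Hand1 and Foxf1 mesoderm list, which holds the rule's genes, 11 were lower. Hand1, limited by the rule, was at 36.2 CPM against 493, and H19, an imprinted RNA the rule did not use, at 119 against 794. Trophoblast list genes were lower in members too, 8 of 10, while Eomes and Tfap2c were higher (Tfap2c not without 1 cell), with Krt8 at 180 CPM against 926, and their summed level was 463 against 2153 CPM; the part of trophoblast-like cells in the comparison was not tested. Vim, vimentin, was at 359 CPM in members and 360 in the Hand group, and of 11 tested mesenchymal genes 3 were higher, 2 lower and 6 between (median -0.0048).

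**Figure D4:**
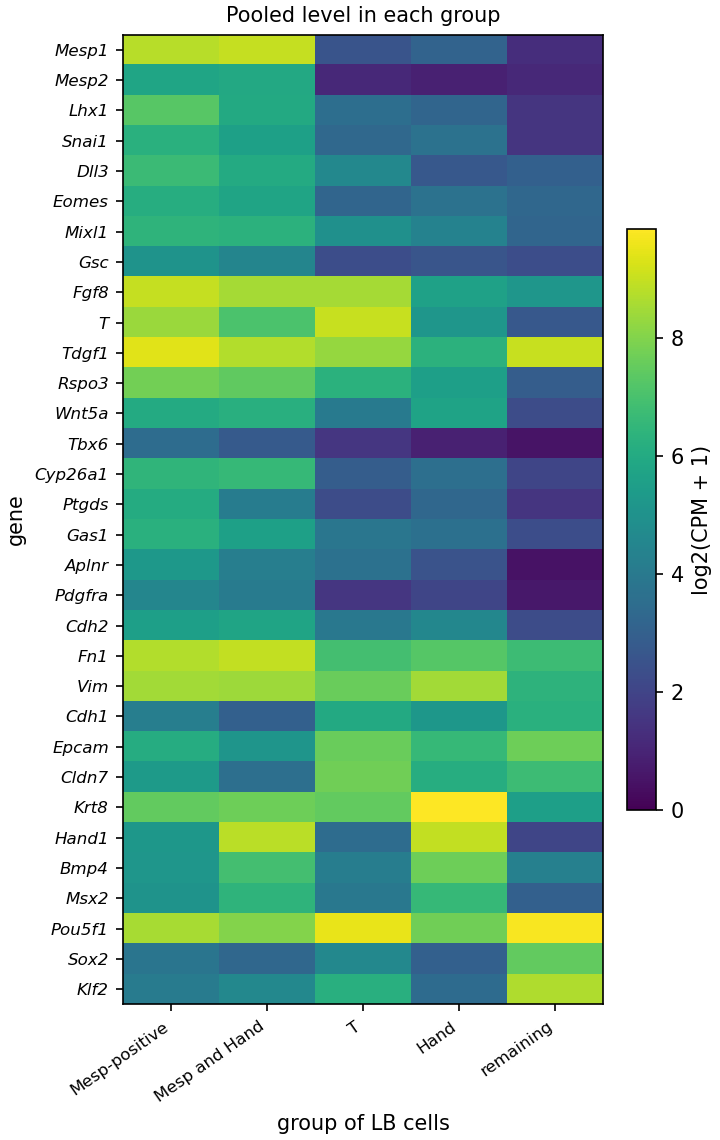
Pooled level of 32 genes (rows) in 5 groups of LB cells (columns), as log2(CPM + 1). Mesp-positive and Mesp and Hand cells share Eomes, Cyp26a1 and Fn1, and part at T (333 against 131 CPM). They also share Mesp1 and part at Hand1 (36.2 against 451 CPM), genes that the rule used to set these groups.

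Neighbours in expression were counted with the rule's genes left out, as the 15 nearest cells in 30 principal components. On average 38.1% of a member's neighbours were members, who are 3.93% of LB cells. The Mesp and Hand group gave 18.3% (3.98% of cells), the T group 28.5% (14.5%), the Hand group 6.10% (11.2%) and the remaining cells 9.05% (66.3%). Members had 0, 6 and 12 member neighbours at the lowest, median and highest, and 43 of 70 had at least 8 neighbours with 3 or more Mesp UMIs. No member had more than 7 neighbours among the remaining cells. The neighbours were computed from the same cells and are a description.

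Members fell along a range of T. The 38 cells with 3 or more T UMIs and the 32 with fewer had median depths of 20364 and 20600 UMIs. Of 137 list and named genes with enough UMIs, 20 were at least 2-fold higher and 11 lower in the T-high cells. No share over all genes is given for this or the later divisions of members, so their counts are not compared. Mesp1 was at 431 CPM (387 to 478) in T-high and 451 (401 to 505) in T-low cells, and Lhx1, Snai1 and Dll3 also lay within counting error. Mesp2 was at 38.7 CPM (26.5 to 54.7) in T-high and 74.9 (55.6 to 98.8) in T-low cells, under 2-fold, and at 38.7 and 55.1 CPM without the cell with most of its UMIs. Cdx2, a posterior homeobox gene, was at 84.8 CPM (66.1 to 107) in T-high and had 2 UMIs in all T-low cells (upper bound 10.8 CPM). Eomes was at 24.2 CPM (14.8 to 37.4) and 124 (99.0 to 154). Otx2, an anterior homeobox gene, was at 26.6 and 85.4 CPM, and Pdgfra at 12.1 and 34.5. Sox4, a SOX factor, had a log2 ratio of -2.18. Igfbp3, Fst, Tcf15, Nanog and Cldn7 were higher in the T-high cells. For these 10 genes, Cdx2 to Cldn7 and not Mesp2, the difference stayed at least 2-fold without the cell with most UMIs of the gene (log2 ratio 4.03 for Cdx2 and -2.18 for Eomes). All 4 measured naive genes (Nanog, Klf5, Zfp42 and Dppa5a) were at least 2-fold higher in the T-high cells (median 1.33). So was Pou5f1 (500 against 228 CPM), while the other 4 measured core genes lay between. Of 4 measured epithelial genes Epcam and Cldn7 were higher and 2 lay between (median 1.00).

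**Figure D5:**
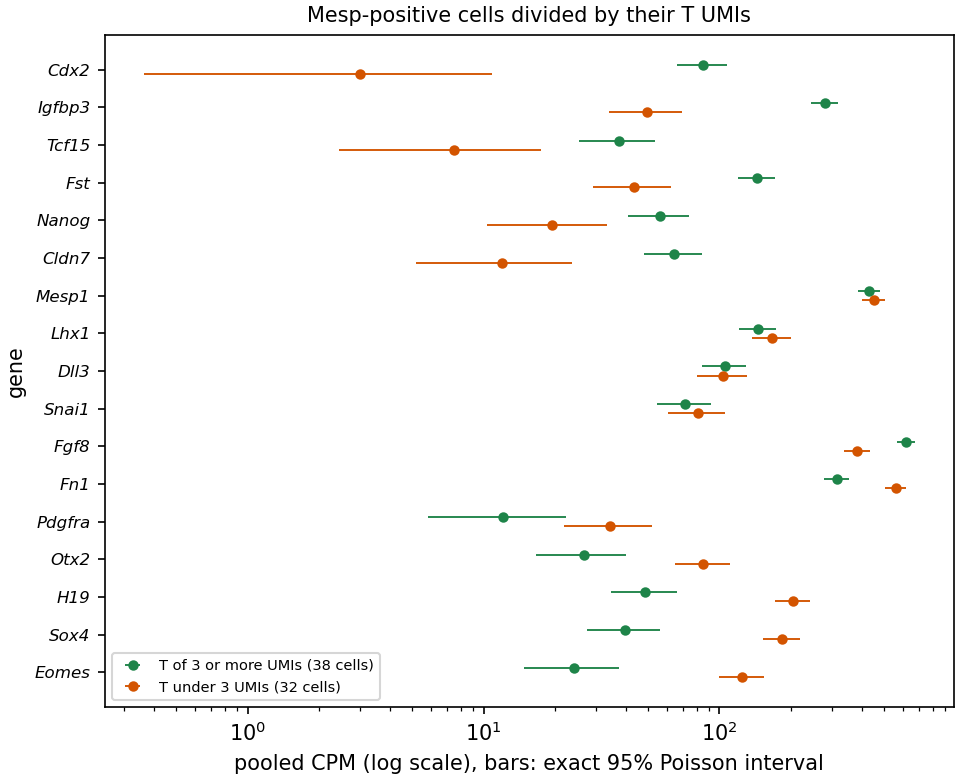
Pooled CPM (x axis, log scale) of 17 genes in the 38 members with 3 or more T UMIs (green) and the 32 with fewer (orange); bars are exact 95% Poisson intervals. Cdx2 and Eomes lie apart in opposite directions, and Mesp1, Lhx1, Dll3 and Snai1 overlap.

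Members were also divided by the Hand set, with 5 of 137 list and named genes higher and 11 lower in the 32 members without any Hand set UMI. Of 12 measured BMP pathway genes 6 were lower (Bmp4, Id1, Id2, Id3, Msx1 and Msx2), Bmp7 was higher and 5 lay between. Bmp7 had 18 and 13 UMIs, a log2 ratio of 1.01 that lay within counting error (-0.05 to 2.21). Bmp4 and Id1 were under 2-fold without the cell with most of their UMIs (-0.63 and -0.99). Id2 had 0 UMIs in these cells and 45 in the other 38, Msx2 was at 6.71 against 49.0 CPM and Id3 at 40.3 against 123 CPM. Median depths were 18803 and 22680 UMIs, and the part of depth was not tested. Ptgds was at 134 and 21.2 CPM. Mesp1 itself was at 460 and 427 CPM, within counting error.

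A further division was by the amount of Mesp. Between the 26 members with 10 or more Mesp UMIs and the 44 with fewer, 2 of 136 genes were at least 2-fold higher and 8 lower. Cfc1, a NODAL co-receptor related to Tdgf1, was at 47.1 against 14.1 CPM, while Igfbp3 (61.1 against 249 CPM) and Fst (48.9 against 130 CPM) were lower. Between the 34 members with a Mesp2 UMI and the 36 without, 6 of 137 genes were at least 2-fold higher and 5 lower, not counting Mesp2. Cfc1 was at 45.2 against 9.18 CPM, Cyp26a1 at 122 against 53.8 and Cdx2 at 23.3 against 72.1. Lhx1 was at 204 against 108 CPM, a log2 ratio of 0.92 and thus under 2-fold. T was at 315 and 350 CPM, within counting error.

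In LBPXRS, 0 of 2705 filtered cells met the rule, which allows a share of up to 0.111% (3 counts, exact upper bound 0.136%). No LBPXRS cell had more than 2 Mesp UMIs, and 84 cells had at least 1. The kept LBPXRS cells were shallower, with a median of 19058 UMIs against 25418 in LB, and the rule counts raw UMIs. The conditions were not tested against each other, and the part of depth was not tested.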

How the data were processed

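Single-cell RNA was measured in 1 LB and 1 LBPXRS library of R1 mouse embryonic stem cells. The deposited matrices hold raw UMI counts per gene and barcode for 32285 genes, made with Cell Ranger 4.0.0, per the submitters' processing notes. Barcodes with at least 1000 genes and at most 10% mitochondrial UMIs were kept (1783 of 2008 in LB). UMIs were summed over the cells of a group and scaled to CPM, with a pseudocount of 1 CPM in ratios and a minimum of 10 CPM in either group. Intervals are exact Poisson or Clopper-Pearson at 95% and cover counting error only, since cells of 1 library are not replicates. No p-value was computed. Shares were also taken after thinning to 5000 UMIs. Neighbours came from scanpy 1.11.5 (2000 variable genes), TMM factors from edgeR 4.0.16. The pooled ratio was also run on simulated Poisson counts with known folds. That simulation had no variation between cells, so it cannot speak to genes whose UMIs lie mostly in 1 cell. Named genes were the 12 largest and smallest ratios against the other LB cells and the 8 against the T and Hand groups at 50 CPM or more, and the members of 27 lists. The members, markers and lists were chosen with earlier results of these data known, so none is independent evidence.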

Additional observations from a re-analysis of the deposited data

Results flagged for a closer look

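The LBPXRS library, which entered no comparison of genes, held Mesp UMIs above the level of 3 that a count of 0 allows. Mesp1 had 28 UMIs in 28 filtered LBPXRS cells, 0.540 CPM (0.359 to 0.781). Mesp2 had 61 UMIs in 57 cells, 1.18 CPM (0.900 to 1.51). The Zfp42-high LB cells were at 1.00 CPM of Mesp1 and 1.17 CPM of Mesp2, so Mesp2 differed by less than counting error between them. The source of these UMIs was not tested.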

How the results depend on the processing

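The number of members was 47 to 88 under the other cell limits tried, and 141 with no Hand set maximum. Counts of genes at least 2-fold higher and lower moved by over 1.5 times with the gene minimum and with thinning. Against the other LB cells they were 713 and 742 after thinning to 5000 UMIs, 784 and 1497 at a minimum of CPM 1, and 106 and 103 at CPM 50, in place of 395 and 447. Against the T group they were 494 and 676, 535 and 1059, and 45 and 43, in place of 180 and 265, and a Mesp minimum of 2 UMIs gave 157 lower. Against the Hand group they were 622 and 971, 684 and 1211, and 79 and 107, in place of 269 and 447. In the 69 thinned members 10 CPM is 3.45 UMIs. The share of higher genes was 34.4% at CPM 1 against the other LB cells, and 51.1% at CPM 50 in place of 40.4% against the T group.

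Among values past 2-fold, signs turned for the list genes and the medians of short lists given here; the cause was not tested. Of genes under 2-fold the sign turned in at least 1 setting for 47 of 102 against the other LB cells, 56 of 118 against the T group and 39 of 112 against the Hand group. With no Hand set maximum Dlk1 and Hand1 had ratios of 1.32 and 1.83 to the other LB cells. After thinning, Isl1 and Zeb2 were at -0.081 and -0.51 against the other LB cells, and Isl1, Prdm6 and Zeb2 at -0.54, -0.83 and -1.17 against the T group. The blood and endothelial median (2 genes, -1.95) was 0.51 at a Mesp minimum of 5 UMIs, 1.35 with no Hand set maximum, 0.37 after thinning and 0.75 at CPM 1. The node and endoderm median against the T group (1 gene) was -0.13 at CPM 1. Against the Hand group the neural median (2 genes, -1.22) was 0.14 at a Hand set maximum of 1, 0.12 over per-cell CPM and 0.16 after thinning, and the germ cell median (3 genes, 1.09) was -0.47 after thinning. Of list and named genes past 2-fold, 89 of 117, 54 of 86 and 86 of 113 stayed so in every setting tried against the other LB cells, T group and Hand group. Leaving out the cell with most UMIs of a gene took Lefty1, Igfbp3, Hes1, Wnt5b, Spry2, Nrarp, Fzd10, Lamb1, Tgfb1i1 and Zeb2 under 2-fold against the other LB cells. The settings that left out shared barcodes, the Mesp and Hand group or that cell were chosen after seeing the data. With no Hand set maximum there was no Hand group comparison. No paired analysis was possible because each condition is 1 library without replicate numbers, and no replicate could be left out.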

Other observations

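Among 225 LB barcodes that the filters left out, 1 met the Mesp and Hand set limits. Summed Y-linked genes were at 69.6 CPM in members and 62.9 CPM in the other LB cells. Hoxb1, an early Hox gene, was at 10.7 CPM in members and 51.0 CPM in the Mesp and Hand group, and Etv2, a factor of blood and endothelial progenitors, at 16.7 and 47.5 CPM.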
